A study of Mus musculus with 40 samples.

Results

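The translation initiation factors were taken as all genes whose symbol begins with Eif followed by a digit from 1 to 6, without the Argonaute genes once named Eif2c and without the eIF2 kinases named Eif2ak. This rule, which used names and no measured value, found 51 genes among the 23420 genes of the count tables, and 48 of the 51 had enough counts to be tested in both kinds of library. Of the 51, 14 encode subunits of eIF3, the largest initiation factor complex, and these are also described on their own. The study measured hearts of FVB/N mice, labelled male and 12 weeks old, that were either non-transgenic (ntg) or carried a transgene for the microRNA miR-378a (line TG378, here TG). Each genotype was taken after sham surgery or 2 weeks after transverse aortic constriction (TAC), an operation that narrows the aorta and puts the left ventricle under pressure overload. The sham groups held 3 ntg and 3 TG hearts and the TAC groups 7 of each genotype, and RNA came from coronal heart sections from which the right ventricle had been removed. Every heart gave both a library of polyadenylated mRNA and a library of RNA from an Ago2 immunoprecipitate (RISC), which holds the RNAs bound by the RNA-induced silencing complex. The hearts labelled sham stand as nosurg in the column names of the authors' tables of the whole series, so whether they had a sham operation or no surgery is not settled here, and sham is used as in the labels. The mice of both genotypes are of 1 inbred strain, and the promoter that drives the transgene is not given in the sources used here.

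Initiation brings the small ribosomal subunit to the start codon of an mRNA. eIF2 carries the initiator tRNA as a complex with GTP, eIF2B recharges eIF2 with GTP, and eIF3, eIF1 and eIF1A hold the small subunit in a state that can bind mRNA and scan it. The cap is bound by eIF4E, which together with the scaffold eIF4G and the helicase eIF4A recruits that subunit, and the eIF4E-binding proteins block this step when mTOR signalling is low. eIF5 triggers GTP hydrolysis on eIF2 at the start codon, and eIF5B joins the large subunit. In the heart, the growth of cardiomyocytes under pressure overload needs more protein synthesis, and the steps at eIF2, eIF2B and the eIF4E-binding proteins are known points of control.

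The gene counts came to 9980462 to 25456906 reads per mRNA library and 7550054 to 25366924 reads per RISC library. The ribosomal RNA precursor gene Rn45s held 48.5% to 62.3% of the RISC counts and 5.34% to 11.3% of the mRNA counts. The 51 genes together held 0.576% to 0.631% of the counts in each mRNA library and 0.175% to 0.273% in each RISC library, or 0.455% to 0.573% of the RISC counts without Rn45s. The 7 cardiomyocyte markers were all present in every group, with summed levels in mRNA of 96690 to 102800 CPM (the counts-per-million scale over the scaled library size) in the ntg sham hearts. Although all mice were labelled male, the female-specific RNA Xist stood at 117 to 142 CPM in mRNA of the 6 sham hearts and 1.03 to 3.48 CPM in the 14 TAC hearts. The summed Y-linked genes Ddx3y, Uty and Kdm5d stood at 0.108 to 3.89 CPM in sham and 49.2 to 92.1 CPM in TAC. Surgery therefore cannot be told apart from this difference in any comparison of TAC with sham. The 8 adipocyte markers, none of them at 0, summed to 253 to 338 CPM in mRNA of the ntg sham hearts against 22.5 to 49.4 CPM in TG sham. After TAC they summed to 34.6 to 187 CPM in ntg and 30.4 to 99.2 CPM in TG. In the RISC libraries the slope of log2 level on log2 gene length was 0.019 to 0.129 in the ntg TAC hearts and -0.110 to 0.013 in the TG TAC hearts. The hairpin gene Mir378 had 0 counts in all 40 libraries, so the transgene itself could not be checked in these tables. The labels number the hearts as separate samples, and p-values measure the spread between those samples.

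The 3 genes that were not tested were Eif3j1 and Eif3j2, which had 0 counts in all 40 libraries, and Eif4e1b, a germline relative of eIF4E, which had 22 counts in 14 libraries. All 2367 exon bases of Eif3j1 in the annotation also lie in exons of Eif3j2, so reads of this loosely held eIF3 subunit may have been assigned to neither gene, and a count of 0 says nothing on its level. Eif2a overlaps Serp1, Eif3m overlaps Ccdc73, Eif4a2 overlaps Rfc4 and Eif5b overlaps Rev1 in exons on the opposite strand. The libraries were not strand-specific, so antisense reads at those places could not be separated. Reads of genes with annotated pseudogenes elsewhere could be lost or split. Such genes include Eif1, Eif2s3x and Eif3e, whose pseudogenes carry its earlier symbol Eif3s6.

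Promoters are shown for 4 genes on which the results turn, the X- and Y-linked copies of the eIF2 gamma subunit and the eIF3 subunit genes Eif3l and Eif3g. Each line gives 60 bases before and 30 bases after the RefSeq transcription start on GRCm38.p6, and the coordinates are chrX:94212622-94212711 on the minus strand for Eif2s3x, chrY:1010535-1010624 on the plus strand for Eif2s3y, chr15:79075163-79075252 on the plus strand for Eif3l and chr9:20898561-20898650 on the minus strand for Eif3g. Capitals mark AAGATGGC in the first pair and CCGGAAG or its reverse complement in the second.
Eif2s3x: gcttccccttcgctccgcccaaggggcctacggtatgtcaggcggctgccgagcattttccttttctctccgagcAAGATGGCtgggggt
Eif2s3y: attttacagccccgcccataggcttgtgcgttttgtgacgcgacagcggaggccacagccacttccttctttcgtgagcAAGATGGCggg
Eif3l: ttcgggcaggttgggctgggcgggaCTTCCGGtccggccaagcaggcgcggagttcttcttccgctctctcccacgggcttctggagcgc
Eif3g: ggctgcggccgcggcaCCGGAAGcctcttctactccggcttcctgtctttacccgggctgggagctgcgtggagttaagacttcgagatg
Between the 300-base RefSeq promoters of Eif2s3x and Eif2s3y, of which the printed lines are a part, the best local alignment held 37 identical bases of 50 aligned and ran past the end of the printed Eif2s3x line. RefSeq promoters of 300 bases were matched for 39 of the 51 genes. CCGGAAG, the core letters recognised by ETS factors, was found on either strand in 15 of the 39 (38.5%) and in 9.93% of all 27025 promoters. CACGTG, the E-box letters bound by Myc and its relatives, was in 10 of the 39 (25.6%) against 8.09% of all, and AAGATGGC, known from YY1 sites, in 5 of the 39 (12.8%) against 3.19% of all. CCGGAAG ends in the letters with which AAGATGGC begins, so matches can share letters; matches to different motifs did so in 0 of the 39 and in 1 of all 27025 promoters. A match describes the sequence only.

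Among the 48 tested genes, the level per kilobase of exon in ntg sham mRNA was highest for Eif1, which keeps start-codon selection accurate, at 218 ± 35.4 CPM per kb (mean ± SD, n = 3). It was lowest for Eif5a2, the rarer copy of the hypusine-carrying factor eIF5A, at 0.241 ± 0.0261 CPM per kb. After Eif1 came the eIF3 subunit Eif3h with 182 ± 9.92 CPM per kb, Eif5a with 167 ± 8.72 CPM per kb and Eif4g2 with 164 ± 8.47 CPM per kb. Eif4g2 encodes DAP5, an eIF4G relative that does not bind eIF4E. Eif1 lay above Eif3h in all 3 hearts, while Eif3h and Eif5a, and Eif5a and Eif4g2, overlapped between hearts. Eif4a1 followed with 119.7 ± 5.33 CPM per kb and Eif4g1 with 109 ± 1.15 CPM per kb, and neither overlapped its neighbours in the order. The lowest tested genes above Eif5a2 were the Y-linked Eif2s3y with 0.316 ± 0.25 CPM per kb, Eif1a with 2.85 ± 0.0995 CPM per kb and the eIF2B gamma subunit Eif2b3 with 3.33 ± 0.284 CPM per kb. Measured over the length of its longest transcript in place of the exon union, Eif5a stood at 233 CPM per kb and above Eif1.

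**Figure D1:**
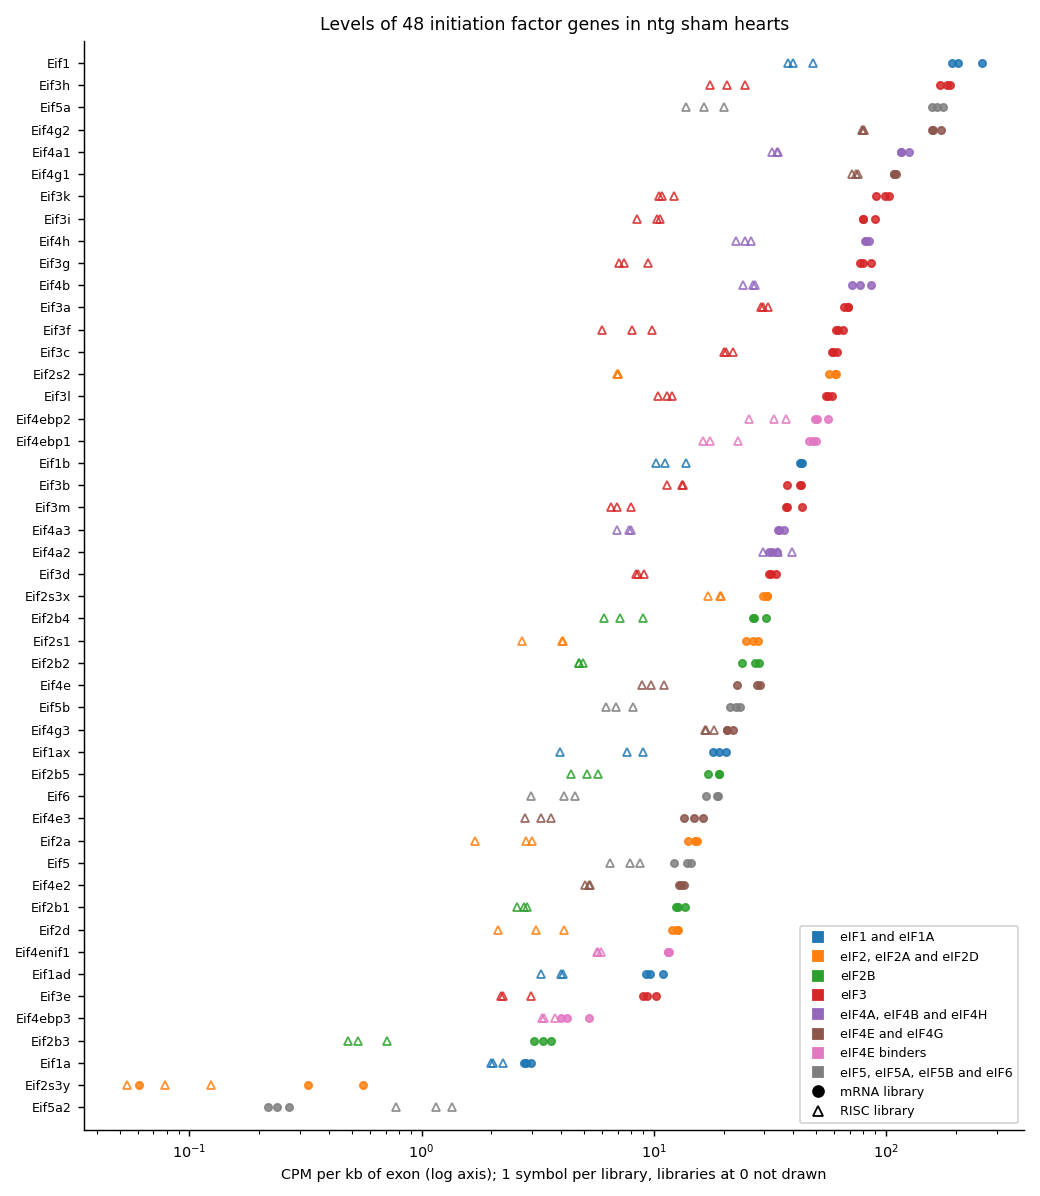
Level of the 48 tested initiation factor genes in mRNA and RISC libraries of the 3 ntg sham hearts, in CPM per kilobase of exon on a log axis, 1 gene per line in the order of the mean mRNA level; each symbol is 1 library, libraries at 0 are not drawn, and colours give the factor's role. Among these 48 genes Eif1 was highest in mRNA with a mean of 218 CPM per kb and Eif5a2 lowest with 0.241 CPM per kb.

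Some paralogs of 1 factor stood at unequal levels in mRNA and others near each other. Eif4a1, the main eIF4A helicase, was 3.68 ± 0.297 times as high per kilobase as Eif4a2 in the ntg sham hearts, and Eif4g1 was 5.16 ± 0.204 times as high as Eif4g3. In the RISC libraries of the same hearts the Eif4a1 to Eif4a2 ratio was 0.987 ± 0.152, and that of Eif4g1 to Eif4g3 4.31 ± 0.112. Eif4ebp1 and Eif4ebp2, which both hold eIF4E back from eIF4G, were near each other in ntg sham mRNA with a ratio of 0.932 ± 0.0931, and the ratio was 1.36 ± 0.111 in the ntg TAC hearts. The cap-binding relative Eif4e3 was below Eif4e, with an Eif4e to Eif4e3 ratio of 1.77 ± 0.0912 in ntg sham and 1.36 ± 0.156 in TG sham mRNA.

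The 12 measured eIF3 subunits did not stand at equal mRNA levels, although the complex holds 1 copy of each. They ran from 9.52 ± 0.674 CPM per kb for Eif3e to 182 ± 9.92 CPM per kb for Eif3h, a ratio of 19.1 between the highest and the lowest, with a median of 61.4 CPM per kb. Eif3e has annotated pseudogenes, so its reads could be lost, and the next lowest subunit was Eif3d. Whether the low value of Eif3e, and with it the ratio, comes from lost reads was not tested. Eif3k with 97.5 ± 6.19, Eif3i with 83.1 ± 6 and Eif3g with 81.4 ± 4.5 CPM per kb formed the upper part; Eif3i and Eif3g overlapped between hearts. Eif3i and Eif3g sit with Eif3b (41.1 ± 3.03 CPM per kb) in a mobile module of the complex, so levels within that module were unequal too. The middle of the order held Eif3a with 67.9 ± 1.65, Eif3f with 62.8 ± 2.25, Eif3c with 59.9 ± 1.47 and Eif3l with 56.8 ± 1.77 CPM per kb. Eif3a and Eif3c form the backbone of the core. The lower part held Eif3m with 39.3 ± 3.58 CPM per kb and Eif3d with 32.4 ± 1.2 CPM per kb, whose human protein can itself bind the cap of chosen mRNAs. Summed over the 12 subunits, eIF3 mRNA came to 1418 to 1475 CPM in ntg sham hearts and 1342 to 1490 CPM in TG sham. After TAC it came to 1320 to 1483 CPM in ntg and 1336 to 1447 CPM in TG, so the summed level overlapped across all 4 groups.

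In RISC libraries of the ntg sham hearts the order of levels per kilobase was another: Eif4g2 with 79.7 ± 0.785, Eif4g1 with 74.2 ± 2.2, Eif1 with 42.03 ± 5.73 and Eif4a2 with 34.5 ± 4.92 CPM per kb were highest. Where library totals left out Rn45s these levels were 182, 169, 95.8 and 78.7 CPM per kb, in the same order. Set against the mRNA of the same hearts, 32 of the 48 genes were lower in RISC and 8 were higher, at an adjusted p below 0.05; over all 14372 genes tested 31.9% were lower and 29.2% higher. The median log2 difference of RISC from mRNA was -0.79 for the 48 genes and -0.07 for all genes. Lowest were Eif3g with -2.27 (adjusted p = 7.27e-21, SE 0.12), Eif5a with -2.24 (adjusted p = 1.14e-22, SE 0.11), Eif3k with -2.04, Eif3h with -2.03, Eif3i with -2.01 and the eIF2 beta subunit Eif2s2 with -2.001. Highest were Eif5a2 with 3.26 (adjusted p = 1.23e-12, SE 0.31) and Eif4a2 with 1.16 (adjusted p = 1.22e-08, SE 0.16), then Eif4g3 with 0.79, the binder gene Eif4ebp3 with 0.70, Eif1a with 0.62, Eif4g1 with 0.53, Eif2s3x with 0.38 and Eif4ebp2 with 0.37. Which genes were higher depended on the scaling in the joint fit of all 40 libraries. With CPM scaled within each kind of library, as in the levels above, the mean log2 ratio was positive for Eif5a2 (2.15) and Eif4a2 (0.07) alone of these. It was -0.29 for Eif4g3, -0.36 for Eif4ebp3, -0.46 for Eif1a, -0.55 for Eif4g1, -0.70 for Eif2s3x and -0.72 for Eif4ebp2.

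By role, 11 of the 12 eIF3 subunits were lower in RISC than in mRNA, with a median log2 difference of -1.31; Eif3a, the largest subunit, was the one without a call (-0.11, adjusted p = 0.489). All 5 eIF2B subunits were lower, from -1.46 for Eif2b3 to -0.78 for Eif2b5. The other lower genes were Eif2s1 (-1.80), Eif2a (-1.51), Eif2d (-0.94), Eif1 (-1.30), Eif1b (-0.79), Eif1ad (-0.33), Eif4a1 (-0.76), Eif4a3 (-1.13), Eif4b (-0.50), Eif4h (-0.67), Eif4e2 (-0.26), Eif4e3 (-1.13), Eif5b (-0.59) and Eif6 (-1.16). None of the 4 genes of eIF4E binders was lower. The difference rose with exon length: the Spearman correlation across the 48 genes was 0.527, and across all genes 0.656, given as a description since all genes share the same libraries. A fit with each library's length slope added, a setting chosen after the data were seen, left no call among the 48 genes, and 13 estimates changed sign. Over all genes that fit called 176, against 4587 lower and 4199 higher without the slope.

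Between TG and ntg hearts most initiation factor genes did not pass the test in mRNA, and a small set differed, in the same direction after sham and after TAC surgery. In the sham hearts Eif5, Eif4ebp1, Eif3l and Eif3k fell and Eif3d, Eif2b5 and Eif4e3 rose, 7 of 48 genes; over all genes 9.17% were called higher and 9.41% lower. In the TAC hearts 7 fell and 5 rose, against 11.8% lower and 13.5% higher over all genes, so the share of initiation factor genes called was near the background in both. The median log2 fold change was 0.01 in sham and 0.02 in TAC, with medians of -0.01 and 0.00 over all genes, and the median size without sign was 0.13 and 0.09 against 0.23 and 0.16 over all genes. All 7 genes called in sham were also called in TAC in the same direction, which is 100% of the sham list and 58.3% of the TAC list; over all genes the shares were 64.9% and 47.5%. These 2 comparisons use different hearts. Levels here are of whole tissue, so fewer cells of a type and less RNA per cell cannot be told apart.

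Eif5, which makes eIF2 hydrolyse its GTP, measured 55.4, 57.4 and 48.5 CPM in mRNA of the ntg sham hearts. The TG sham values were 32.6, 40 and 38.3 CPM, for a log2 fold change of -0.54 (adjusted p = 0.000643, SE 0.10). All 3 TG hearts lay below all 3 ntg hearts. With 3 hearts per group such a lack of overlap was common. It held for 20 of the 48 genes in sham mRNA and for 16 in sham RISC, where 7 and 5 genes were called. The share over all genes was not counted. After TAC the ntg hearts ran from 41.04 to 49.9 (median 43.5) CPM and the TG hearts from 32.7 to 41.9 (median 37.05) CPM. These overlapped, and the log2 fold change was -0.28 (adjusted p = 0.0034, SE 0.07). The other genes of this role, Eif5a, Eif5a2, Eif5b and Eif6, were not called, at -0.54 to 0.16 in sham and -0.27 to 0.11 in TAC on the log2 scale.

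Among the eIF4E binders, Eif4ebp1 measured 48.9, 47.5 and 45.9 CPM in mRNA of the ntg sham hearts. Values were lower in TG sham, at 38.8, 32.4 and 42.6 CPM, with no overlap and a log2 fold change of -0.33 (adjusted p = 0.0302, SE 0.10). After TAC the ntg hearts ran from 59.6 to 64.2 (median 62.95) CPM and the TG hearts from 45.2 to 63.1 (median 53.2) CPM. That log2 fold change was -0.23 (adjusted p = 0.011, SE 0.07), with overlap. Eif4ebp2 fell in TAC by 0.18 (adjusted p = 0.0375, SE 0.06) on the log2 scale and was not called in sham (-0.17). Eif4ebp3 and Eif4enif1, which shuttles eIF4E into the nucleus, were called in neither.

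The cap-binding relative Eif4e3 rose. It measured 37.3, 41.01 and 34.1 CPM in mRNA of the ntg sham hearts, and all TG sham hearts lay above these, at 44.6, 48.2 and 46.1 CPM. Its log2 fold change was 0.31 (adjusted p = 0.0122, SE 0.08). In TAC it ran from 32.6 to 38.5 (median 34.8) CPM in ntg and from 41.8 to 49.8 (median 44.04) CPM in TG. Here too all TG hearts lay above all ntg hearts, with 0.34 (adjusted p = 4.92e-05, SE 0.05). Eif4e itself, Eif4e2, Eif4g1, Eif4g2 and Eif4g3 were not called in mRNA, at -0.27 to 0.12 in sham and -0.13 to 0.07 in TAC. Eif4a1 rose in TAC by 0.29 (adjusted p = 0.00497, SE 0.07) and had nearly the same estimate in sham (0.28, adjusted p = 0.0755), where it missed the threshold.

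Eif2b5, the catalytic epsilon subunit of eIF2B, measured 44.04, 48.9 and 48.8 CPM in mRNA of the ntg sham hearts. In TG sham it stood at 57.7, 61.8 and 55.1 CPM, all higher, with a log2 fold change of 0.30 (adjusted p = 0.0105, SE 0.08). After TAC the range was from 43.4 to 48.6 (median 46.3) CPM in ntg and from 47.5 to 57.9 (median 56.5) CPM in TG. The difference there was 0.28 (adjusted p = 0.000358, SE 0.05), with overlap at the edges. The other 4 eIF2B subunit genes, Eif2b1, Eif2b2, Eif2b3 and Eif2b4, were not called, at -0.07 to 0.14 in sham and -0.03 to 0.07 in TAC. Of eIF2 and its relatives only the Y-linked Eif2s3y was called, in TAC, with 0.48 (adjusted p = 0.0261, SE 0.15). Eif2s1, Eif2s2, Eif2s3x, Eif2a and Eif2d were not. No eIF1 or eIF1A gene was called, although Eif1 had estimates of 0.22 in sham and -0.31 in TAC with wide errors (SE 0.36 and 0.23).

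Within eIF3 the subunits split. Eif3l and Eif3k, which pair with each other at the edge of the complex, both fell, and Eif3d rose, in sham and in TAC. Eif3l measured 106, 105 and 111 CPM in mRNA of the ntg sham hearts against 86.5, 83.95 and 88.8 CPM in TG sham. After TAC it ran from 98.1 to 112 (median 101) CPM in ntg and from 77.99 to 94.97 (median 89.8) CPM in TG hearts. In both surgeries all TG hearts lay below all ntg hearts. The sham log2 fold change was -0.32 (adjusted p = 0.00553, SE 0.08), and the TAC one -0.25 (adjusted p = 0.000737, SE 0.05). Eif3k measured 70.1, 76.4 and 79.5 CPM in ntg sham hearts against 67.2, 60.2 and 57.7 CPM in TG sham, a difference of -0.29 (adjusted p = 0.0141, SE 0.08). It fell in TAC by 0.20 (adjusted p = 0.00595, SE 0.05) with overlapping hearts. Eif3d measured 60.1, 61.1 and 64.5 CPM in ntg sham hearts against 71.8, 69.6 and 84.5 CPM in TG sham, a difference of 0.28 (adjusted p = 0.0404, SE 0.10). It rose in TAC by 0.29 (adjusted p = 0.00123, SE 0.06).

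In TAC Eif3h and Eif3g were also called lower, Eif3h with -0.19 (adjusted p = 0.0225, SE 0.06) and Eif3g with -0.18 (adjusted p = 0.0146, SE 0.05). Eif3g ran from 64.5 to 87.5 (median 77.1) CPM in ntg TAC and from 64.7 to 70.8 (median 67.1) CPM in TG TAC mRNA. The TG hearts lay within a narrow band at the low end of the ntg range. The other 9 measured subunits in sham stood at -0.27 to 0.08 and the other 7 in TAC at -0.09 to 0.20 on the log2 scale, and the eIF3 median was -0.04 and 0.00.

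**Figure D2:**
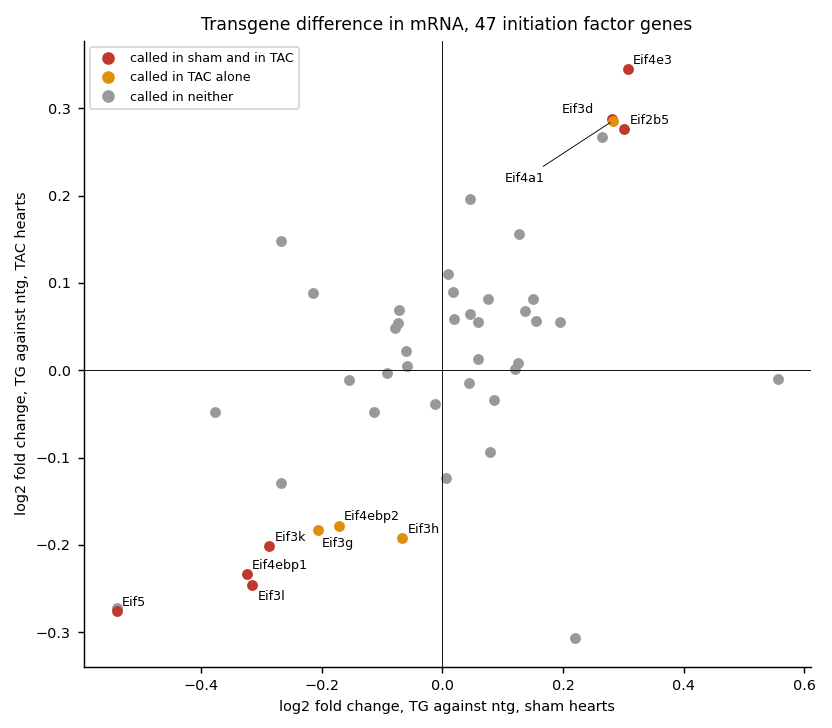
Log2 fold change of TG against ntg in mRNA for 47 initiation factor genes, in sham hearts on the horizontal and in TAC hearts on the vertical axis; Eif2s3y is left out because it was near 0 in sham hearts. The 7 genes called in both surgeries lie in the lower left (Eif5, Eif4ebp1, Eif3l, Eif3k) or the upper right (Eif4e3, Eif3d, Eif2b5).

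No initiation factor gene had a transgene difference in mRNA that was called as unequal between TAC and sham by the edgeR interaction test, against 0.0707% higher and 0.0141% lower over all genes. At an unadjusted p below 0.05 there were 2 of the 48, against 1445 of all 14141 genes. DESeq2 called 1 of the 48, and 73 over all genes. In sham mRNA 6 of the 8 lists of cell type markers had lower sums in TG than in ntg without overlap. Beside the adipocyte list these were cardiomyocytes (73820 to 89440 CPM in TG against 96690 to 102800 CPM in ntg), smooth muscle and pericytes (676 to 758 against 917 to 1132 CPM) and endothelial cells (1006 to 1035 against 1072 to 1130 CPM). The fibroblast sum was 1151 to 1215 CPM in TG against 1243 to 1481 CPM in ntg, and the lymphocyte sum 6.06 to 7.05 against 7.29 to 11.3 CPM. The macrophage and red blood cell sums overlapped. In the red blood cell list 4 of the 5 markers, the globin genes, were at 0 in both groups, so that sum is Alas2 alone. In TAC mRNA 5 of 7 endothelial markers were called lower in TG, with sums of 1034 to 1146 CPM against 1194 to 1277 CPM in ntg and no overlap. There 4 of the 6 macrophage markers in the tables were also called lower, with overlapping sums of 279 to 374 CPM in TG and 340 to 398 CPM in ntg. No marker of the lists without overlap was at 0 over a group in mRNA, and the part of the lists other than adipocytes in these results was not tested. With the adipocyte level as a covariate in the sham comparison Eif3l, Eif4ebp1 and Eif5 stayed called while the 3 higher genes and Eif3k did not. Estimates of those that did not were -0.30 for Eif3k, 0.26 for Eif2b5, 0.23 for Eif3d and 0.21 for Eif4e3. Over all genes 986 were called with the covariate, against 2627 without it. Adipocyte sums did not overlap between the genotypes in sham, so adipocyte level and transgene cannot be told apart there. In sham, 5 calls ended when 1 heart was left out. Eif3d lost its call without ntg sham heart 1, 2 or 3 or TG sham heart 1 or 3 (adjusted p up to 0.213). Eif4ebp1 lost its call without ntg sham heart 1, 2 or 3 or TG sham heart 1 or 2 (adjusted p up to 0.157). Eif3k lost its call without ntg sham heart 3 or TG sham heart 3 (adjusted p up to 0.0755). Eif2b5 lost its call without ntg sham heart 1 (adjusted p = 0.0677). Eif4e3 lost its call without ntg sham heart 3 (adjusted p = 0.0866). In TAC, 3 calls did. Eif4ebp2 lost its call for 9 of the 20 hearts left out (5 ntg TAC, 4 TG TAC), with an adjusted p of up to 0.082. Eif3h lost its call without ntg TAC heart 4 or TG TAC heart 5 or 7 (adjusted p up to 0.0619). Eif2s3y lost its call without ntg TAC heart 4 or TG TAC heart 6 or 7 (adjusted p up to 0.0584).

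In the RISC libraries every eIF3 subunit called between TG and ntg hearts was higher in TG. In the sham hearts Eif3e, Eif3l, Eif3b and Eif4a1 were higher in TG and Eif4ebp1 was lower, 5 of the 48 genes; over all genes 2.71% were higher and 3.1% lower. In the TAC hearts 7 were higher (Eif3e, Eif3g, Eif3d, Eif2b5, Eif1, Eif2b2 and Eif3l) and 4 lower (Eif5, Eif4e, Eif4g2 and Eif4ebp2), against 7.78% and 7.46% over all genes. All 12 eIF3 subunits had a positive estimate in TAC, from 0.04 for Eif3a to 0.63 for Eif3e, with a median of 0.21; over the 48 genes the median was 0.09 and over all genes 0.01. In sham the eIF3 estimates ran from -0.30 for Eif3f to 0.79 for Eif3e, 9 of the 12 above 0, with a median of 0.18, against 0.09 over the 48 genes and -0.01 over all. In the same TAC comparison 3 of the 7 cardiomyocyte markers were called higher in TG and none lower, with a median of 0.21 and overlapping sums of 17310 to 23480 CPM in TG and 15480 to 20100 CPM in ntg. In sham RISC 2 of the 7 were called lower, although their sum was higher, at 23170 to 24530 CPM in TG against 22340 to 23140 CPM in ntg. The part of these markers in the eIF3 values was not tested.

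Eif3e measured 3.37, 3.46 and 4.56 CPM in RISC of the ntg sham hearts against 7, 6.29 and 6.59 CPM in TG sham. After TAC it ran from 3.89 to 6.61 (median 5.56) CPM in ntg and from 5.86 to 10.2 (median 9.28) CPM in TG. The sham groups did not overlap and the TAC groups did. The log2 fold change was 0.79 (adjusted p = 0.0343, SE 0.23) in sham and, in TAC, 0.63 (adjusted p = 0.0031, SE 0.15). Eif3g ran from 5.8 to 9.58 (median 7.21) CPM in ntg TAC and from 9.83 to 11.9 (median 10.5) CPM in TG TAC, without overlap. Its difference was 0.57 (adjusted p = 0.000716, SE 0.11), and in sham it was not called (0.36, adjusted p = 0.244). Eif3l, in contrast to its mRNA, was higher in TG. It measured 22.7, 19.9 and 21.7 CPM in ntg sham hearts against 35.4, 28.5 and 30.8 CPM in TG sham, with no overlap and a difference of 0.56 (adjusted p = 0.0186, SE 0.15). After TAC the ntg hearts ran from 17.8 to 31.7 (median 20.7) CPM and the TG hearts from 25.6 to 29.2 (median 27.9) CPM. These overlapped, with 0.28 (adjusted p = 0.0485, SE 0.10). Eif3d rose in TAC by 0.45 (adjusted p = 0.00176, SE 0.10) and Eif3b in sham by 0.40 (adjusted p = 0.0435, SE 0.12).

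Outside eIF3, Eif4a1 rose in sham RISC by 0.44 (adjusted p = 0.0127, SE 0.11) and Eif4ebp1 fell by 0.57 (adjusted p = 0.0245, SE 0.16). In TAC the eIF2B subunits Eif2b5 and Eif2b2 rose by 0.42 (adjusted p = 0.00294, SE 0.10) and 0.38 (adjusted p = 0.0294, SE 0.12), and Eif1 by 0.41 (adjusted p = 0.00156, SE 0.09). The 3 other eIF2B genes were not called, at -0.06 to 0.25. Eif4g2 ran from 516 to 616 (median 538) CPM in ntg TAC and from 394 to 469 (median 423) CPM in TG TAC, without overlap, and fell by 0.37 (adjusted p = 0.000192, SE 0.07). Eif5 fell by 0.45 (adjusted p = 0.00955, SE 0.12), the cap-binding factor gene Eif4e by 0.38 (adjusted p = 0.00696, SE 0.10) and Eif4ebp2 by 0.28 (adjusted p = 0.0325, SE 0.09). The 43 genes not called in sham included Eif2s3y, which held 1 count in the TG sham RISC libraries; the 37 not called in TAC stood at -0.34 to 0.41.

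**Figure D3:**
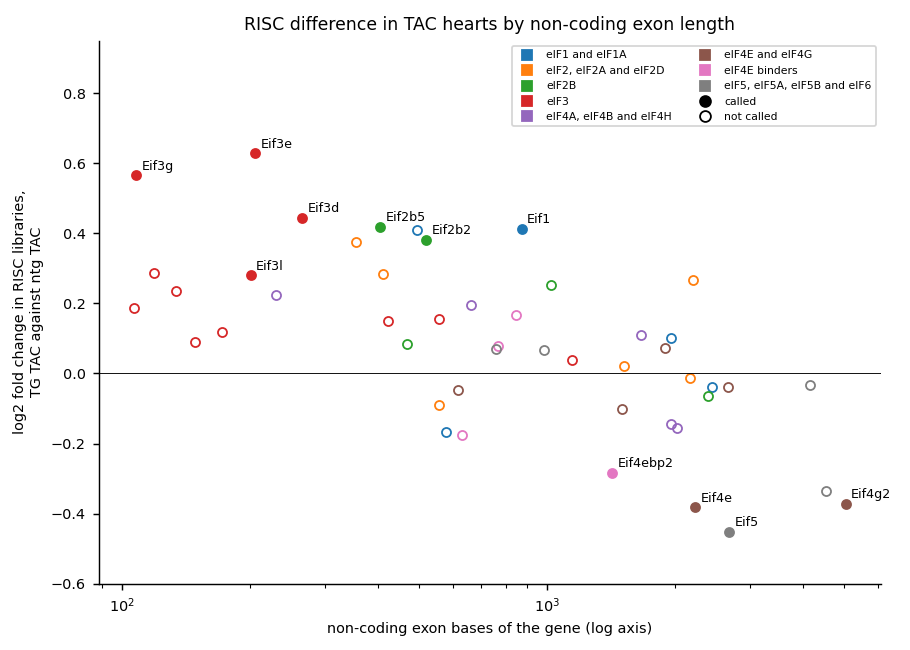
Log2 fold change of TG TAC against ntg TAC in RISC libraries for the initiation factor genes, plotted against the non-coding exon bases of each gene on a log axis; colours give the role, and filled points were called. The eIF3 genes with short non-coding exons lie above 0, with Eif3g and Eif3e at 0.57 and 0.63, and Eif4g2, Eif5 and Eif4e with long ones lie below 0.

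The RISC difference in TAC ran with gene length. Over the 48 genes its Spearman correlation was -0.537 with exon length and -0.682 with non-coding exon length, and over all genes -0.311 and -0.302; these describe genes that share libraries and carry no p. The sham difference gave 0.280 and -0.0085 over the 48 genes and -0.040 and -0.069 over all genes. Non-coding bases are 10.1% of the Eif3g exons and 10.6% of the Eif3l exons. The length slope of the RISC libraries differed between the ntg TAC and TG TAC hearts, as given above. With that slope as a covariate 0 of the 7 higher and 0 of the 4 lower genes stayed called. Over all genes 175 were called with it, against 2050 without it. The slopes did not overlap between the 2 genotypes in TAC, so slope and genotype cannot be told apart in this fit. Eif3g then stood at 0.56 (adjusted p = 0.185) and Eif4g2 at -0.35 (adjusted p = 0.152). All 5 sham calls in RISC ended when 1 heart was left out. Eif3b lost its call without ntg sham heart 1, 2 or 3 or TG sham heart 1, 2 or 3 or TG TAC heart 3 (adjusted p up to 0.204). Eif3e lost its call without ntg sham heart 1 or 2 or TG sham heart 1, 2 or 3 (adjusted p up to 0.129). Eif3l lost its call without ntg sham heart 2 or 3 or TG sham heart 1 (adjusted p up to 0.114). Eif4ebp1 lost its call without ntg sham heart 3 or TG sham heart 2 or 3 (adjusted p up to 0.227). Eif4a1 lost its call without ntg sham heart 1 or TG sham heart 2 (adjusted p up to 0.0557). In TAC 3 of the 11 did. Eif3l lost its call for 15 of the 20 hearts left out (2 ntg sham, 2 TG sham, 5 ntg TAC, 6 TG TAC), with an adjusted p of up to 0.111. Eif4ebp2 lost its call without ntg TAC heart 2, 5 or 7 or TG TAC heart 1, 6 or 7 (adjusted p up to 0.0997). Eif2b2 lost its call without ntg TAC heart 2 or 4 or TG TAC heart 3 (adjusted p up to 0.0814). For none of the 48 genes was the RISC difference called unequal between TAC and sham by edgeR, with 0.32% higher and 0.0223% lower over all genes. At an unadjusted p below 0.05 there were 7 of the 48, against 1375 of all 13451 genes. DESeq2 called 1 of the 48, and 126 over all genes.

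Set against the mRNA of the same hearts, Eif3l was called higher in RISC of TG than of ntg hearts after both surgeries, and Eif3g after TAC. Ratios by heart use CPM scaled within each kind of library, so their level is not that of the joint fit of all 40 libraries. The log2 ratio of RISC to mRNA for Eif3l was -2.40 to -2.23 in ntg sham and -1.56 to -1.29 in TG sham hearts, without overlap. It was -2.51 to -1.72 in ntg TAC and -1.83 to -1.49 in TG TAC. The difference of TG from ntg was 0.87 (adjusted p = 0.00502, SE 0.17) in sham. In TAC it was 0.53 (adjusted p = 0.00472, SE 0.11). For Eif3g the ratio was -3.79 to -2.75 in ntg TAC and -2.75 to -2.53 in TG TAC hearts, which met only at their edges, and the difference was 0.75 (adjusted p = 3.04e-05, SE 0.11). In sham the Eif3g ratio was -3.45 to -3.19 in ntg and -2.86 to -2.73 in TG hearts, without overlap, but Eif3g was not called. Eif3e had the largest sham estimate of the 48 genes, 1.05, also without a call. Its ratio was -2.23 to -1.60 in ntg sham and -1.21 to -0.40 in TG sham hearts. The other 47 genes in sham and 46 in TAC were not called, and none was called lower. Over all genes 0.167% were higher and 0.0765% lower in sham, and 0.682% and 0.264% in TAC.

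Eif3l was 1 of 5 genes in the tables called lower in mRNA and higher in RISC, or the reverse, by the transgene in sham hearts, and Eif3l and Eif3g were 2 of 19 in TAC. The calls relative to mRNA were kept with the length slope as a covariate, a setting chosen after the data were seen. The RISC slopes of TG and ntg hearts did not overlap in TAC, so this fit does not separate length from genotype there. With the slope in the fit Eif3l stood at 0.87 (adjusted p = 0.0037) in sham and at 0.56 (adjusted p = 0.023) in TAC. Eif3g stood at 0.65 (adjusted p = 0.0035) in TAC. In sham, Eif3l lost its call without ntg sham heart 2 or TG sham heart 1 (adjusted p up to 0.0909). No single heart ended the calls in TAC. Across the 48 genes the TAC difference relative to mRNA had a Spearman correlation of -0.629 with exon length and -0.725 with non-coding exon length, and across all genes -0.280 and -0.306. In sham these were 0.309 and 0.0035 across the 48 genes.

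**Figure D4:**
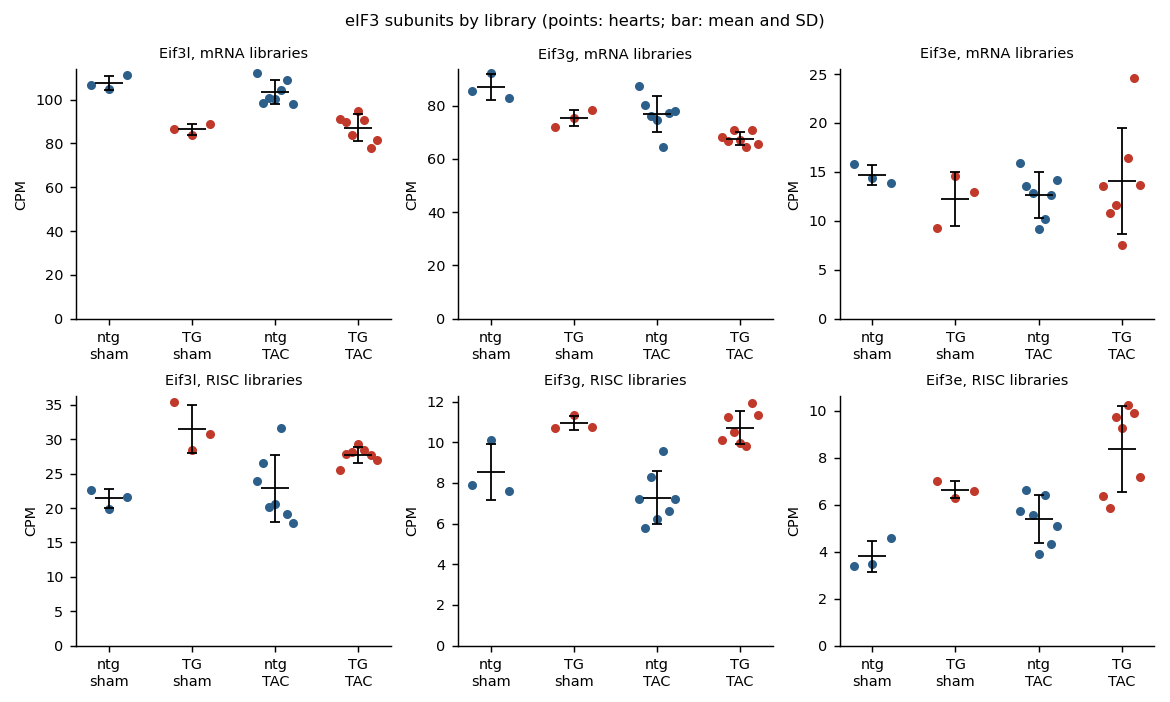
Level of Eif3l, Eif3g and Eif3e in each heart, in CPM, in mRNA and RISC libraries of the 4 groups. Each point is 1 library and bars give the group mean and SD. Eif3l in mRNA is lower in TG hearts (84.0 to 88.8 CPM in TG sham against 105 to 111 CPM in ntg sham), while in RISC the TG sham hearts (28.5 to 35.4 CPM) lie above the ntg sham hearts (19.9 to 22.7 CPM).

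In mRNA the largest differences between TAC and sham hearts among the 48 genes, in either genotype, were those of the sex-linked eIF2 gamma genes. Eif2s3x measured 110.2, 110.1 and 106 CPM in mRNA of the ntg sham and 104, 124 and 102 CPM of the TG sham hearts. After TAC it ran from 59.7 to 70.2 (median 66.3) CPM in ntg and from 58.4 to 72.5 (median 71.7) CPM in TG. No TAC heart reached a sham heart of its genotype. The log2 fold change of TAC against sham was -0.72 (adjusted p = 5.83e-07, SE 0.07) in ntg hearts. In TG hearts it was -0.68 (adjusted p = 2.13e-06, SE 0.07). Eif2s3y, its copy on the Y chromosome, held 18 counts in the 3 ntg sham and 2473 in the 7 ntg TAC mRNA libraries. That is a ratio of 40.3 after scaling to library size with an exact 95% interval of 25.5 to 68.2 for counting error. In TG hearts it held 3 counts in sham and 4214 in TAC, a ratio of 486 with an interval of 166 to 2358. By heart it measured 0.576, 0.108 and 0.994 CPM in the ntg sham and 0.055, 0.0704 and 0.0898 CPM in the TG sham hearts. After TAC it ran from 15.3 to 29.99 (median 24.4) CPM in ntg and from 22.2 to 44.7 (median 32.1) CPM in TG, above all sham hearts.

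Xist and the other Y-linked genes split the hearts the same way, as given above, and the part of that difference in these values cannot be told apart from surgery. The sum of Eif2s3x and Eif2s3y in mRNA was 109 ± 2.25 CPM in ntg sham (n = 3) and 110.1 ± 11.7 CPM in TG sham (n = 3). It was 90.04 ± 5.50 CPM in ntg TAC (n = 7) and 102 ± 8.21 CPM in TG TAC (n = 7). Over hearts the sum ran from 82.75 to 110.8 CPM in ntg and from 89.1 to 123.6 CPM in TG. These sums are not scaled to length, and the exons hold 3587 bases for Eif2s3x and 1771 bases for Eif2s3y. They therefore do not give the direction of a change in the joint transcript level of the pair. In RISC the pair repeated the split. Eif2s3x differed by -0.49 (adjusted p = 0.00164, SE 0.10) in ntg and by -0.76 (adjusted p = 5.99e-06, SE 0.10) in TG. Eif2s3y held 7 counts in ntg sham against 724 in ntg TAC, a ratio of 48.8 (23.6 to 122). It held 1 in TG sham against 1282 in TG TAC, a ratio of 534 (95.7 to 21110).

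**Figure D5:**
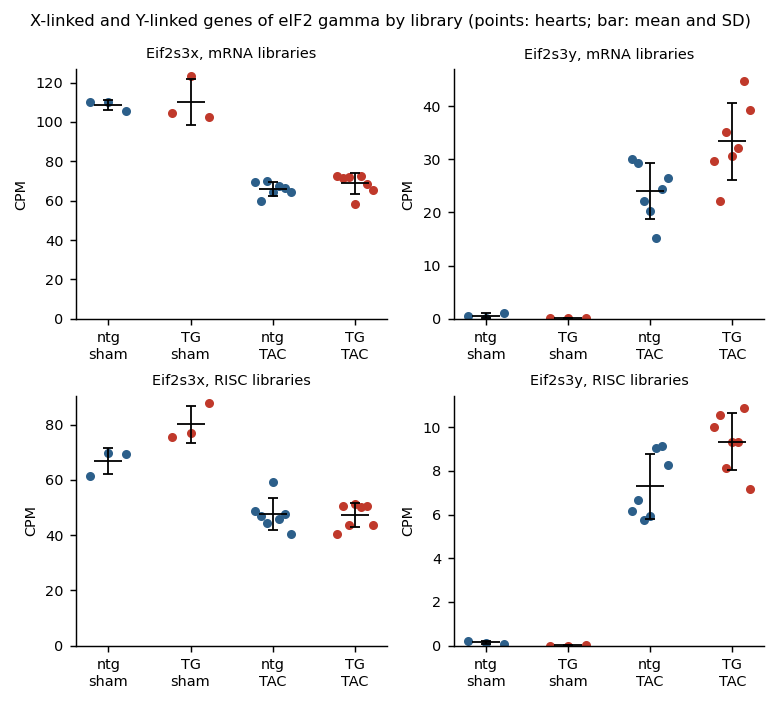
Level of Eif2s3x and Eif2s3y in each heart, in CPM, in mRNA and RISC libraries of the 4 groups; each point is 1 library and bars give the group mean and SD. In mRNA every sham heart lies at 102 CPM or above for Eif2s3x and near 0 for Eif2s3y, and every TAC heart lies at 72.5 CPM or below for Eif2s3x.

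Apart from that pair, few initiation factor genes differed between TAC and sham. The 8 fibroblast markers, of which none was at 0, moved with surgery too, at a summed 1243 to 1481 CPM in mRNA of ntg sham hearts against 2077 to 3040 CPM after TAC. In TG hearts they summed to 1151 to 1215 CPM in sham and 1464 to 3263 CPM in TAC. In ntg mRNA 5 of the 7 cardiomyocyte markers were called lower after TAC, with sums of 72140 to 80730 CPM against 96690 to 102800 CPM in sham, while in TG 1 was and the sums overlapped. The endothelial sum was 1194 to 1277 CPM in ntg TAC against 1072 to 1130 CPM in ntg sham, and the macrophage sum 340 to 398 against 291 to 317 CPM. In TG 3 of the 6 macrophage markers and 1 of the 7 endothelial markers were called higher. In RISC, fibroblast markers called higher numbered 5 in ntg and 4 in TG of 8, and cardiomyocyte markers called lower 4 and 1 of 7. The part of these markers in the results was not tested. In mRNA of ntg hearts 3 were lower and 2 higher, the pair included, with 9.31% lower and 8.41% higher over all genes. In TG hearts 4 were lower and 2 higher, against 6.56% and 6.57%. Eif4ebp1 rose in both genotypes with no overlap in either, from the levels given above. The rise was 0.40 (adjusted p = 0.00299, SE 0.09) in ntg hearts and 0.49 (adjusted p = 0.00115, SE 0.09) in TG hearts. Eif4ebp2, Eif4ebp3 and Eif4enif1 were not called, at -0.15 to 0.02 in ntg and -0.15 to 0.05 in TG. In ntg hearts Eif2a, an alternative carrier of initiator tRNA, fell by 0.38 (adjusted p = 0.0355, SE 0.12) and Eif5 by 0.27 (adjusted p = 0.033, SE 0.09).

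In TG hearts Eif4h, which assists the eIF4A helicase, fell by 0.29 (adjusted p = 0.00862, SE 0.07), Eif2b4 by 0.23 (adjusted p = 0.0222, SE 0.07) and Eif5a by 0.18 (adjusted p = 0.0452, SE 0.06). None of the 12 eIF3 subunits was called in mRNA in either genotype; their estimates were -0.27 to 0.22 in ntg and -0.15 to 0.20 in TG hearts. The medians of the 48 genes were -0.08 and -0.06, with -0.02 and 0.00 over all genes. Among these calls, 5 ended when 1 heart was left out. Eif2a lost its call for 8 of the 20 hearts left out (3 ntg sham, 4 ntg TAC, 1 TG TAC), with an adjusted p of up to 0.132. Eif5 lost its call without ntg sham heart 1 or 2 or ntg TAC heart 1, 4, 6 or 7 (adjusted p up to 0.183). Eif5a lost its call for 13 of the 20 hearts left out (3 TG sham, 5 ntg TAC, 5 TG TAC), with an adjusted p of up to 0.165. Eif2b4 lost its call without TG sham heart 1 or 2 or TG TAC heart 5 (adjusted p up to 0.132). Eif4h lost its call without TG sham heart 2 (adjusted p = 0.0504). With the adipocyte level as a covariate Eif4ebp1 was not called in ntg hearts (0.28, adjusted p = 0.143). Over all genes 929 were called in that fit, against 2505 without the covariate. The adipocyte sums of ntg sham and ntg TAC hearts did not overlap either.

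In RISC of ntg hearts Eif5a2 rose by 0.68 (adjusted p = 0.0343, SE 0.22) and Eif4b, a cofactor of the helicase, by 0.34 (adjusted p = 0.0185, SE 0.10), while Eif2b4 fell by 0.41 (adjusted p = 0.0452, SE 0.14). With the pair these made 3 higher and 2 lower, against 5.54% and 5.39% over all genes. In TG hearts 4 were higher and 3 lower, against 4.72% and 3.84%. Eif4ebp1 rose by 0.72 (adjusted p = 0.000942, SE 0.14), Eif4ebp2 by 0.38 (adjusted p = 0.0439, SE 0.12) and Eif3h by 0.35 (adjusted p = 0.0433, SE 0.11). Eif4a2 fell by 0.51 (adjusted p = 0.0159, SE 0.14) and Eif4g2 by 0.26 (adjusted p = 0.048, SE 0.09). In RISC 7 of the calls ended when 1 heart was left out. Eif2b4 lost its call without ntg sham heart 1 or 3 or TG sham heart 2 or ntg TAC heart 3, 4 or 6 or TG TAC heart 4 (adjusted p up to 0.367). Eif5a2 lost its call without ntg sham heart 1 or 2 or ntg TAC heart 3 or 4 (adjusted p up to 0.259). Eif4b lost its call without ntg sham heart 1, 2 or 3 (adjusted p up to 0.138). Eif3h lost its call for 9 of the 20 hearts left out (1 ntg sham, 3 TG sham, 5 TG TAC), with an adjusted p of up to 0.244. Eif4ebp2 lost its call for 10 of the 20 hearts left out (1 ntg sham, 2 TG sham, 2 ntg TAC, 5 TG TAC), with an adjusted p of up to 0.241. Eif4g2 lost its call for 10 of the 20 hearts left out (1 ntg sham, 3 TG sham, 2 ntg TAC, 4 TG TAC), with an adjusted p of up to 0.186. Eif4a2 lost its call without TG sham heart 3 (adjusted p = 0.225).

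Genes that act on the initiation factors are set against the shares called over all genes in mRNA, which for TG against ntg were 9.17% higher and 9.41% lower in sham and 13.5% higher and 11.8% lower in TAC. Of 12 genes of the eIF2 kinases and the stress response downstream of them, 1 rose and 1 fell with the transgene in sham and 3 rose and 1 fell in TAC. Chac1, a stress-response target, was the one that fell, by 1.54 (adjusted p = 0.00739, SE 0.39) in sham and by 0.98 (adjusted p = 0.00202, SE 0.22) in TAC. The stress sensor gene Sesn2 rose in sham by 0.59 (adjusted p = 0.0363, SE 0.20). In TAC the transcription factor gene Ddit3 rose by 0.59 (adjusted p = 0.000226, SE 0.10) and Ppp1r15a, whose product directs the phosphatase to eIF2, by 0.49 (adjusted p = 0.000651, SE 0.10). Ppp1r15b was the other, at 0.15. None of the 4 eIF2 kinase genes was called for the transgene. Ppp1r15a was also the 1 gene of this list called between TAC and sham in mRNA, lower by 0.63 (adjusted p = 0.00127, SE 0.13) in ntg and by 0.49 (adjusted p = 0.0102, SE 0.12) in TG hearts.

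Among 12 genes of the mTOR and MNK pathways that act on eIF4E, 1 fell with the transgene in sham and 1 rose and 1 fell in TAC, against the same shares over all genes (9.41% lower in sham, 13.5% higher and 11.8% lower in TAC). The one that fell was Rps6kb2, an S6 kinase gene, by 0.33 (adjusted p = 0.0207, SE 0.10) in sham and by 0.34 (adjusted p = 0.000247, SE 0.06) in TAC. Tsc1, an inhibitor of mTOR, was the one that rose, by 0.14. Between TAC and sham in ntg hearts the eIF4E kinase gene Mknk1 rose by 0.34 (adjusted p = 0.00535, SE 0.08), while the mTOR activator gene Rheb and Tsc1 fell by 0.38 and 0.25. In TG hearts Mknk1 rose by 0.30 (adjusted p = 0.0142, SE 0.08).

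Among 13 other genes of initiation, Cyfip2, whose protein family binds eIF4E, rose by 1.12 (adjusted p = 1.22e-06, SE 0.13) in sham and by 0.99 (adjusted p = 4.46e-09, SE 0.08) in TAC. In RISC it rose by 1.24 and 1.00. The X-linked helicase gene Ddx3x fell with the transgene by 0.50 (adjusted p = 0.00422, SE 0.12) in sham and by 0.30 (adjusted p = 0.00498, SE 0.08) in TAC, and no other gene of this list was called for the transgene in mRNA. Ddx3x was also lower in TAC than in sham hearts, by 0.85 in ntg and 0.66 in TG, in the same hearts in which the sex-linked genes differed.

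Of the 8 elongation factor genes, 2 fell with the transgene in sham and 1 rose and 1 fell in TAC, where over all genes 9.41% fell in sham and 13.5% rose and 11.8% fell in TAC. Eef2k, the kinase that slows elongation by acting on eEF2, fell by 0.89 (adjusted p = 1.81e-07, SE 0.09) in sham and by 0.64 (adjusted p = 1.08e-08, SE 0.06) in TAC, and in RISC by 0.74 and 0.35. It was higher in TAC than in sham by 0.34 (adjusted p = 0.00239, SE 0.07) in ntg and 0.60 (adjusted p = 3.27e-05, SE 0.08) in TG hearts. Eef1a1, which carries aminoacyl-tRNA to the ribosome, fell in sham by 0.73 and the translocase gene Eef2 rose in TAC by 0.20 on the log2 scale. Of the 3 termination factor genes none was called for the transgene or for surgery in mRNA or RISC by edgeR.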

How the data were processed

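The count tables were deposited by the authors, 1 per library, as whole-number counts of reads per gene. Per the submitters' processing notes, TopHat2 2.0.10, Bowtie2 and HTSeq were used with mm10; parameters are not given in the sources used here. The authors' 2 deposited tables of the whole series were not used; their column names give nosurg for the hearts the labels call sham. Levels here are CPM over TMM-scaled library sizes, per kilobase of exon union from the deposited annotation where genes are compared. Rows naming no gene (5 per table) were left out; they held a mean 11.5% of mRNA and 4.09% of RISC counts. Differences were tested with edgeR 4.0.16 in R 4.3.3 (robust quasi-likelihood test, filterByExpr, TMM), in 1 fit for the 20 mRNA libraries, 1 for the 20 RISC libraries and 1 for all 40, and adjusted by Benjamini-Hochberg over all genes tested; called means an adjusted p below 0.05. SE is the log2 fold change over the square root of F. DESeq2 1.42.0 was an alternative. On simulated data for TG against ntg in TAC, the mRNA fit over 14018 genes recovered 93.9% of genes changed by 1 and 74% of those changed by 0.5 (log2), the RISC fit over 13162 genes 87% and 45.9%, and the joint fit over 14248 genes 71% and 24.2%. Wrong calls numbered 11, 5 and 8. Few genes were changed there and the 4 groups differed in nothing else, so recovery in the real data can differ. The sham comparisons were not simulated.

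The text names, in each comparison, the called members, with full statistics for those with the 6 largest changes and 1 CPM or more, the 4 highest per length, every eIF3 subunit, Eif2s3x and Eif2s3y, members of small roles beside a named one, and up to 3 called genes of each related list. Members and lists were chosen with earlier results of these data known. The mRNA and RISC libraries of a heart are paired by the labels: their deviations from group means correlated with a median r of 0.177 over 20 hearts, above 0.1 in 16. Against libraries of other numbers the median r was -0.007. The best match was the library of the same number for only 6 of the 20, so the pairing by heart rests mainly on the labels. No 2 replicates differed as little as sampling noise. The closest were TG TAC RISC replicates 3 and 7, with a chi-square per gene of 2.31, against 5.94 or more for all other pairs. Intervals cover counting error only.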

Additional observations from a re-analysis of the deposited data

Results flagged for a closer look

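In the TAC groups of 7, 192 sets of libraries (48 genes, each genotype, mRNA and RISC) were searched for 1 library far from the other 6, and 11 held one. Chance flags about 1 in 20 such sets. In ntg TAC mRNA the lowest library stood apart for Eif2b2 (35.6 CPM, others 41.7 to 46.2) and Eif4enif1 (41.3 CPM, others 43.7 to 45.4). In TG TAC mRNA the highest library stood apart for Eif3k (75.2 CPM, others 61.0 to 64.4), Eif4a3 (54.3 CPM, others 49.0 to 51.2) and Eif4e3 (49.8 CPM, others 41.8 to 44.2), and the lowest for Eif2b5 (47.5 CPM, others 55.9 to 57.9). In ntg TAC RISC the lowest stood apart for Eif1ad (5.34 CPM, others 7.44 to 8.67) and the highest for Eif1b (17.8 CPM, others 9.15 to 12.8). In TG TAC RISC the highest stood apart for Eif4g1 (464.5 CPM, others 382 to 405) and the lowest for Eif5 (14.2 CPM, others 17.5 to 19.8) and Eif6 (3.84 CPM, others 5.44 to 6.44). The calls of Eif3k, Eif4e3 and Eif2b5 in mRNA and of Eif5 in RISC between TG TAC and ntg TAC hearts were not ended by leaving out any single heart.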

How the results depend on the processing

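Over the 101 single-gene calls, the direction was the same and the call kept for 101 with DESeq2, 100 with DESeq2 size factors, 91 without a filter on low counts, 68 of 71 with Rn45s removed, 23 of 30 with the adipocyte level as a covariate and 17 of 71 with the length slope of the libraries as a covariate, and for 1864 of 2020 repeats with 1 heart left out; no call reversed except 13 under the length slope. Of counts called, without the filter the lower genes of TAC against sham were 1 in mRNA and 1 in RISC of ntg hearts, and the higher genes 2 in RISC of TG hearts. With the adipocyte level, TG against ntg in sham mRNA had 0 higher and TAC against sham in ntg mRNA 1 higher, with 986 and 929 called over all genes. Rn45s removal left 1 lower in ntg RISC of TAC against sham. DESeq2 called 1 higher in each interaction, of mRNA and of RISC, with 73 and 126 called over all genes. For TG against ntg in RISC relative to mRNA it called 2 higher in sham and 4 in TAC, with 121 and 330 over all genes. With the length slope, TG against ntg in TAC RISC had 0 higher and 0 lower, with 175 called over all genes. TAC against sham in ntg RISC had 1 and 1, with 195 over all genes. The level of RISC against mRNA in ntg sham had 0 and 0, with 176 over all genes. There the estimates that turned sign were Eif1 1.80, Eif1ad 0.52, Eif1b 0.26, Eif2b2 0.0783, Eif2d 0.13, Eif2s3x -0.57, Eif3e 0.59, Eif3i 0.14, Eif3m 0.26, Eif4e2 0.21, Eif4ebp2 -0.69, Eif4g1 -0.28 and Eif4g3 -0.0046; the cause was not tested. This setting was planned for the RISC fit and, for RISC against mRNA, chosen after seeing the data.

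Replicate numbers did not pair hearts across genotypes (median r of deviations -0.026 in sham and -0.010 in TAC mRNA, 0.087 and 0.123 in RISC), and not every library correlated best with its own number. With that number as a replicate block, TAC against sham gave 1 lower in ntg and 2 lower in TG mRNA, 1 higher and 1 lower in ntg RISC and 1 lower in TG RISC; 46 of 58 calls were kept. The heart as a replicate block for RISC against mRNA changed none of 43 calls.

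With 1 heart left out, counts (higher, then lower) ran 1 to 4 and 2 to 5 for TG against ntg in sham mRNA, 4 to 7 and 5 to 7 in TAC mRNA, 1 to 5 and 0 to 2 in sham RISC, and 5 to 8 and 3 to 4 in TAC RISC. For TAC against sham they ran 2 to 3 and 1 to 5 in ntg mRNA, 2 to 2 and 1 to 4 in TG mRNA, 1 to 3 and 1 to 3 in ntg RISC, and 2 to 5 and 1 to 5 in TG RISC. The RISC interaction had 0 to 1 higher (1 without ntg TAC heart 1), RISC relative to mRNA 0 to 1 higher in sham and 2 to 3 in TAC, and the level comparison 7 to 8 and 30 to 32. Per length, Eif5a in ntg sham mRNA was 233 CPM per kb over its longest transcript; with Rn45s out of the totals, RISC levels were 182 for Eif4g2, 169 for Eif4g1, 95.8 for Eif1 and 78.7 CPM per kb for Eif4a2. Depth limits Eif2s3y in sham hearts, with 1 to 18 counts per group, and Eif4e1b, with 22 counts in all.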

Other observations

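Eif1, the highest initiation factor gene per kilobase of exon union in ntg sham mRNA, had a wide range between hearts of 1 group. In mRNA it measured 247, 313 and 233 CPM in the ntg sham hearts against 323, 181 and 421 CPM in TG sham. After TAC it ran from 179 to 431 (median 325) CPM in ntg and from 156 to 387 (median 235) CPM in TG, so all 4 groups overlapped. With CPM scaled within each kind of library, its log2 ratio of RISC to mRNA was -2.43 to -2.28 in ntg sham and -3.32 to -1.99 in TG sham hearts. That scale is not the one of the joint fit of all 40 libraries, which gave -1.30 for Eif1 in ntg sham.

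The ratio of Eif5a to its paralog Eif5a2 per kilobase was 698 ± 94.9 in ntg sham mRNA and 15.8 ± 3.13 in RISC of the same hearts (n = 3). In mRNA it was 1187 ± 322 in TG sham hearts (n = 3). After TAC it was 559 ± 118 in ntg and 774 ± 317 in TG hearts (n = 7), with overlap. Eif5a2 is a rare transcript, at 1.34, 1.19 and 1.08 CPM in ntg sham mRNA against 3.89, 5.74 and 6.75 CPM in RISC.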
